A study of Mus musculus with 8 samples.

Results

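The 54 genes described here lie around Stat3 on mouse chromosome 11. They were taken as rows of the deposited gene table whose symbol is on a list of genes within about 2 Mb of Stat3, minus genes assigned to other programs, and they are 54 of the 17191 rows of that table. The reference annotation placed 115 table genes within 2 Mb of Stat3, so 61 neighbours were outside the list. The members were selected on position and on their S727A against WT differences in these same libraries, which were already known. The member values are therefore given as a description. Where members are named because they were past a threshold of a test, that too is a description and supports nothing.

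RNA was sequenced from whole hearts of mice in 4 libraries with the STAT3 S727A genotype and 4 wild-type (WT) libraries, all taken 4 weeks into transverse aortic constriction (TAC), surgery that raises the pressure the left ventricle pumps against. The labels put all 8 libraries in batch1 and give no strain, sex, age, source of the allele or animal behind a library, and no library without TAC is in the series. P-values therefore measure the spread between these libraries, which may be technical. The deposited table held 10577619 to 13305124 estimated counts per library.

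STAT3 is a transcription factor that is activated by cytokines of the interleukin 6 family, and phosphorylation of a serine near its end modifies its activity in the nucleus and in mitochondria. In the S727A form alanine stands in place of that serine. Genes close to an introduced allele are inherited with it when mice are crossed, so the neighbours of an altered gene can carry the DNA of the animals or cells in which the change was made; whether the hearts here do was not tested. The genes around Stat3 otherwise share no pathway: they include vesicle and lysosome proteins, chromatin regulators, translation factors, metabolic enzymes, endothelial proteins and proteins of nerve and myelin.

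Promoter sequences are shown for the members whose values separated the groups and that have an entry in the promoter table (Rab5c, Ifi35 and Tmem106a), and for Vat1, which adjoins Ifi35 and has the only STAT-type motif of the 4. Each is the 250 bases before the gene's start from RefSeq on build GRCm38.p6, written 5′ to 3′ on the gene's strand. Capitals mark matches, on either strand, to the STAT motif TTCNNNGAA, the E-box CACGTG, a pair of GAAA with 2 bases between them (an interferon element), the GC box GGGCGG or the CCAAT box, and overlapping matches are joined. Rab5c is at chr11:100738216-100738465 on the minus strand, Ifi35 at chr11:101448162-101448411 on the plus strand, Tmem106a at chr11:101581992-101582241 on the plus strand and Vat1 at chr11:101466200-101466449 on the minus strand.
Rab5c: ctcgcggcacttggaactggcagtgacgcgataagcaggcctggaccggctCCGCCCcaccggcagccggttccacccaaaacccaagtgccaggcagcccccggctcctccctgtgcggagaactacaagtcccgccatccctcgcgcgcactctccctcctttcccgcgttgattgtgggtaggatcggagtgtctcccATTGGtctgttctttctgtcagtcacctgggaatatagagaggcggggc
Ifi35: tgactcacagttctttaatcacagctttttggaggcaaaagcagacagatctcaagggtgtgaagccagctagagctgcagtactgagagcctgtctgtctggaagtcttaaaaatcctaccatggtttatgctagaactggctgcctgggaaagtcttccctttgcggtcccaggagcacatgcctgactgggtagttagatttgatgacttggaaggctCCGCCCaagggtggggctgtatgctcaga
Tmem106a: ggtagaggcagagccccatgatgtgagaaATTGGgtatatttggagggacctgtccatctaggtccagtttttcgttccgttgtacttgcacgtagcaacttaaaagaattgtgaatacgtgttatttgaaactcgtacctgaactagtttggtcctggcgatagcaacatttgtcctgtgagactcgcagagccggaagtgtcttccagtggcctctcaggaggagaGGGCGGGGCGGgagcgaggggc
Vat1: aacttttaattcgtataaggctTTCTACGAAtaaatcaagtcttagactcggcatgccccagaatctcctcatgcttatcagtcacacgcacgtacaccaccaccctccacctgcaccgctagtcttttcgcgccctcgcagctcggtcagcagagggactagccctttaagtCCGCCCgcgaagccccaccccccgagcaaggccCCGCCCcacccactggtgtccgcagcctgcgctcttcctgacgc
Of the 54 members, 39 had an entry, with 50 windows between them. The STAT motif was in 5 of the 50 windows (10%, against 7.02% of all 32851 promoter windows), which belong to Dnajc7, Hap1, Nbr1 and Vat1. The GC box was in 33 of the 50 (66.0%, against 32.74%), the CCAAT box in 20 (40.0%, against 33.85%) and the E-box in 4 (8.0%, against 6.021%). The GAAA pair was in none of the 50 and in 2.977% of all windows. The windows of all genes were not limited to genes tested in these hearts, while 53 of the 54 members were tested. The shares therefore have unlike bases. In the Ifi35 window the letters searched matched only the GC box, and in Vat1 the STAT motif stood with a pair of GC boxes. These matches describe the letters of the windows and say nothing of binding.

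Over the listed members the difference between genotypes was about as large as over all tested genes. Of the 54 members, 53 were tested, and Nags, the liver enzyme that makes the activator of the urea cycle, had 1 count in S727A 1 and 0 in each of the other 7 libraries, where 3 counts would be 0.220 to 0.288 CPM. The median absolute log2 fold change over the 53 was 0.14, and over all 12998 tested genes 0.15. The signed median was -0.07, with 21 members above 0 and 32 below, and single members ran from -0.88 for Adam11 to 0.49 for Ptges3l. At least 0.3 in either direction was reached by 16 members (30.2%) and by 23.4% of all genes.

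No member passed an adjusted p of 0.05 in edgeR's quasi-likelihood test, where 0.146% of all tested genes passed (19 of 12998). At an unadjusted p under 0.05 there were 15 members, beside 17.8% of all genes, of which 4 were higher in S727A (7.55%, beside 8.97% of all genes) and 11 lower (20.8%, beside 8.79%). DESeq2 called 6 of the 53 (Adam11, Ifi35, Ptges3l, Rab5c, Tmem106a and Wnk4) and 3.72% of all genes it tested, limma voom called 0 and 0.0462% of all genes, and the authors' deposited table had a q-value under 0.05 for 4 members (Rab5c, Wnk4, Tmem106a and Adam11) and for 2.61% of its genes. The same contrast was used in choosing the members, and nothing is read from these counts. In 5 of the 53 members (9.43%) all libraries of S727A lay on the same side of all libraries of WT, beside 8.43% of all tested genes, a share near the background. S727A was higher in 3 of them (4.07% of all genes) and lower in 2 (4.36%).

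**Figure D1:**
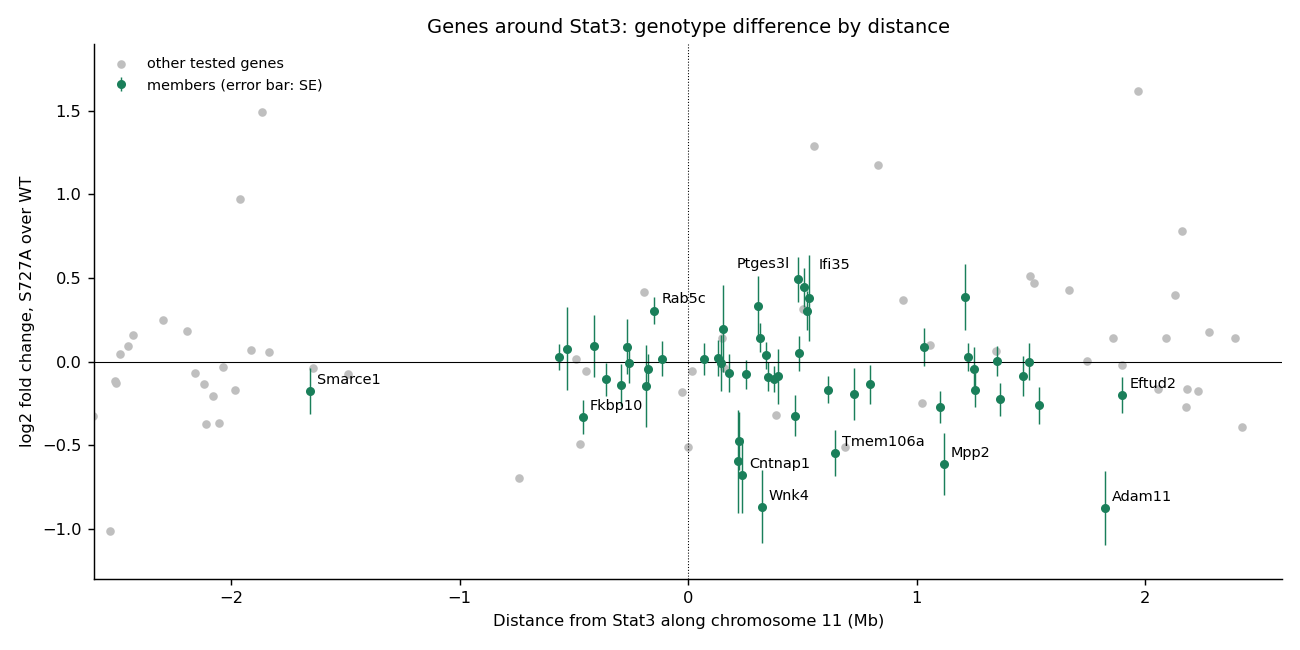
Log2 fold change of S727A over WT (vertical axis) against distance from Stat3 in Mb (horizontal axis, negative towards lower coordinates), with members in green (error bar: SE) and other tested genes of the interval in grey. Members lie on both sides of 0, between -0.88 and 0.49, with no single direction on either side of Stat3.

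Position within the interval did not order the members by size in a single direction, as the map of fold changes against distance shows. The median absolute log2 fold change was 0.10 for the 29 members within 0.5 Mb of Stat3, 0.19 for the 9 between 0.5 and 1 Mb and 0.18 for the 15 beyond 1 Mb. The 13 members on the low-coordinate side had a median absolute value of 0.09, and the 40 on the other side 0.18. The 33 tested genes within 2 Mb that are not members had 0.25, with a median SE of 0.175 beside 0.118 for the members. In 18.18% of these 33 the groups did not overlap, beside 8.43% of all tested genes. An unadjusted edgeR p under 0.05 was seen for 11 of them, beside 17.8% of all genes. After adjustment 0 passed, beside 0.146% of all genes. The 77 chromosome 11 genes between 2 and 5 Mb away had a median absolute value of 0.13. None of these differences was tested.

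The outermost members were Smarce1, a subunit of the SWI/SNF chromatin remodelling complex, and Eftud2, a GTPase of the spliceosome, 1.899 Mb from Stat3. Smarce1 was at 61.7 ± 8.92 CPM in S727A and 69.8 ± 12.5 in WT (mean ± SD, n = 4 each; CPM are counts scaled to a common library size), a log2 fold change of -0.18 ± 0.14 (SE). Eftud2 was at 36.9 ± 3.66 and 42.4 ± 4.77 CPM, with a log2 fold change of -0.20 ± 0.11. The groups overlapped for both. Of the nearest tested genes further out, Igfbp4, a secreted binding protein of insulin-like growth factors, had a log2 fold change of 0.06 ± 0.10. Kif18b, a mitotic kinesin, had 1.62 ± 0.55 at 2.15 ± 1.09 against 0.661 ± 0.550 CPM. The groups did not overlap for Kif18b, which rests on few counts (3, 1, 16 and 14 in WT 1 to 4) and had an edgeR adjusted p of 0.1773. The first tested genes beyond 2 Mb were Rapgefl1 with -0.03 ± 0.42 and Dcakd with -0.16 ± 0.11.

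Stat3 itself was at 169.6, 169.4, 156.1 and 160.5 CPM in S727A libraries 1 to 4 and at 183.2, 180.4, 212.0 and 228.4 CPM in WT libraries 1 to 4. All S727A values lay below all WT values. The log2 fold change was -0.29 ± 0.09 (SE), with an edgeR adjusted p of 0.1553, so Stat3 did not pass. The mutation exchanges a codon and leaves the transcript to be counted, so this level is no check of the genotype labels. Y-linked genes had only 9 counts in library S727A 4 and 6 in library WT 4, while every other library had 1940 to 2225. Transcripts of airway markers summed to 137 CPM in WT 1 and 54.7 CPM in WT 4, and to between 0.0794 and 1.10 CPM elsewhere. Cardiomyocyte markers (Myh6, Tnnt2, Actc1, Tnni3, Ryr2 and Pln), which check the labelled tissue, summed to 62630 to 67130 CPM in S727A and 58970 to 87860 CPM in WT.

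Among the 9 members of endosomes, lysosomes and autophagy, 5 were above 0 and 4 below, with a median log2 fold change of 0.02. Rab5c, a small GTPase of early endosomes and 149 kb from Stat3, was at 89.6, 88.9, 89.6 and 84.6 CPM in S727A 1 to 4 and at 65.5, 67.7, 76.7 and 75.6 CPM in WT 1 to 4. Every S727A value was above every WT value, and S727A 1 to 3 were nearly alike while WT 3 and WT 4 were the WT libraries nearest to them. This is a log2 fold change of 0.30 ± 0.08 (SE). Its relatives on other chromosomes, Rab5a and Rab5b, had 0.08 ± 0.10 and -0.11 ± 0.08, with overlapping groups.

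Vat1, a vesicle membrane protein of the quinone oxidoreductase fold, was named after its values were seen. It was at 82.9, 73.6, 62.5 and 60.7 CPM in S727A and at 48.2, 55.3, 61.3 and 61.6 CPM in WT, a log2 fold change of 0.30 ± 0.12. S727A 1 to 3 were above all WT libraries, and S727A 4 was below WT 3 and WT 4. Nbr1, a receptor that carries ubiquitinated cargo to autophagosomes, was at 157 ± 6.99 CPM against 176 ± 13.6 CPM, a log2 fold change of -0.17 ± 0.08 with overlapping groups.

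The rest of the endosomal and lysosomal members differed by less than 0.2 on the log2 scale. Vps25, a subunit of the ESCRT-II sorting complex, was at 102 ± 6.47 against 92.2 ± 7.63 CPM, a log2 fold change of 0.14 ± 0.09. Atp6v0a1, a membrane subunit of the proton pump that acidifies lysosomes, had 0.02 ± 0.09 at 160 ± 1.93 and 158 ± 19.97 CPM, so that the libraries of WT were more spread. Naglu, which removes N-acetylglucosamine from heparan sulfate in lysosomes, had 0.02 ± 0.11, and Grn, the precursor of granulins, was at 112.5 ± 6.93 and 112.5 ± 16.8 CPM. Becn1, a core subunit of the autophagy lipid kinase complex, had -0.09 ± 0.09. Arl4d, a GTPase of the ARF family, had -0.19 ± 0.16, with S727A 3 at 17.0 CPM and the other S727A libraries between 11.5 and 11.8.

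**Figure D2:**
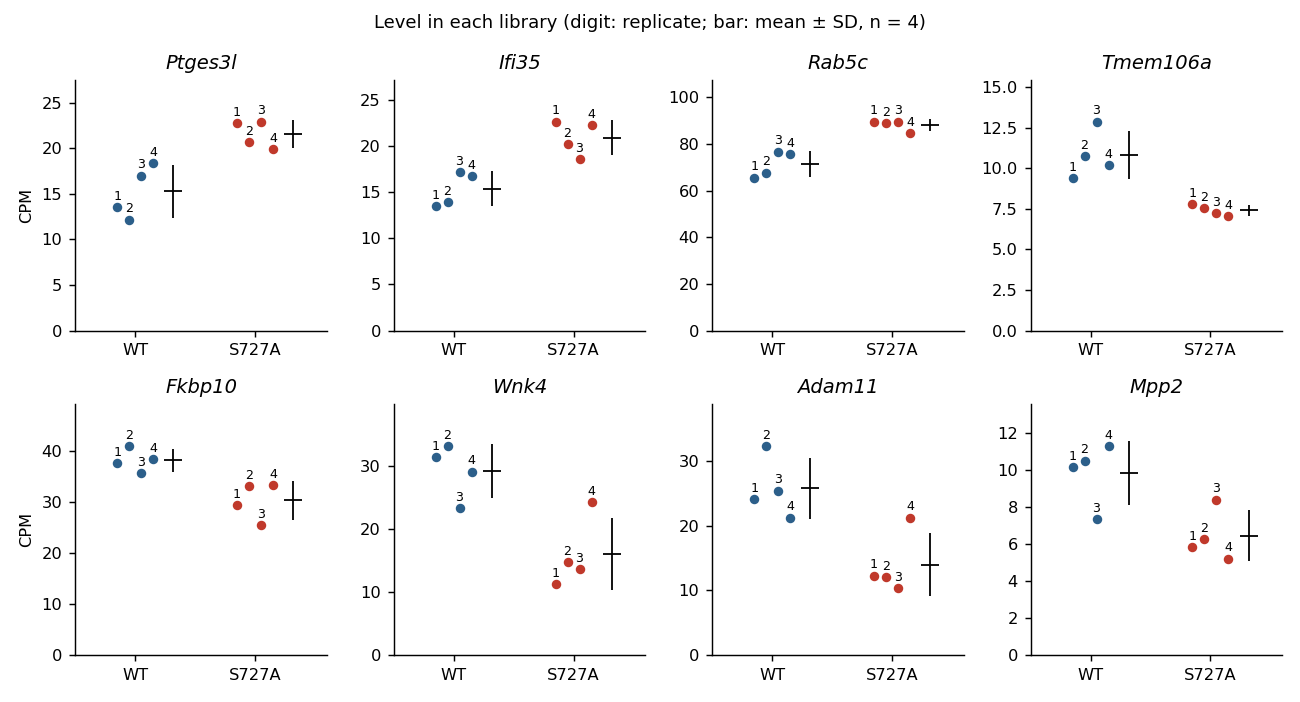
CPM of 8 members in each library (digit: replicate number), with WT in blue, S727A in red and a bar for mean ± SD (n = 4); each axis starts at 0. The groups do not overlap for Ptges3l, Ifi35, Rab5c, Tmem106a and Fkbp10, while S727A 4 lies with WT for Wnk4 and Adam11, and WT 3 lies with S727A for Mpp2.

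The 10 members of RNA handling, translation and protein folding or turnover were split evenly, with 5 above and 5 below 0. Ptges3l, which resembles the HSP90 co-chaperone p23, was at 22.7, 20.6, 22.9 and 19.9 CPM in S727A and at 13.5, 12.2, 17.0 and 18.4 CPM in WT. All S727A values were above all WT values, and WT 1 and WT 2 were the lowest. Its log2 fold change, 0.49 ± 0.14 (SE), was the highest among the members. Rundc1, whose start lies 862 bases inside Ptges3l on the other strand, had 0.05 ± 0.10 at 20.1 ± 1.34 and 19.4 ± 1.72 CPM.

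Aarsd1, which removes wrongly attached amino acids from alanine tRNA, is the next gene downstream of Ptges3l on the same strand, and its values differed in the opposite sense; it was named after its values were seen. It was at 20.9, 17.5, 20.8 and 19.4 CPM in S727A and at 27.3, 28.4, 20.8 and 22.1 CPM in WT, a log2 fold change of -0.32 ± 0.12. S727A 1 was above WT 3, and WT 1 and WT 2 were the highest. The sum of Ptges3l and Aarsd1 was 41.2 ± 2.91 CPM in S727A and 39.9 ± 1.43 in WT, and differed by less than its spread in S727A. Of the summed counts, Ptges3l made up 52.0%, 54.2%, 52.5% and 50.6% in S727A and 33.1%, 30.02%, 45.0% and 45.4% in WT. The 4 S727A shares lay above the 4 WT shares, and WT 3 and WT 4 stood between WT 1 and WT 2 and the S727A libraries. The estimated counts of both genes were whole numbers in every library. GENCODE M21 also annotates a read-through gene, Gm27029, over both genes, which is not analysed here. How reads of such a transcript were counted was not tested.

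**Figure D3:**
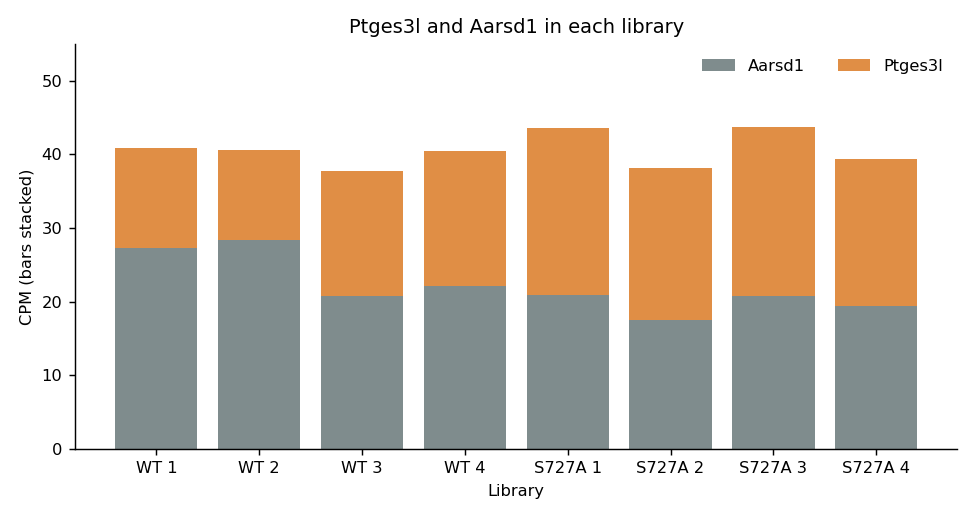
CPM of Aarsd1 (grey) and Ptges3l (orange) stacked for each library (horizontal axis). The summed height is 38.1 to 43.7 CPM in S727A and 37.8 to 40.8 CPM in WT, while the share of Ptges3l in the summed counts is 50.6% to 54.2% in the S727A libraries and 30.02% to 45.4% in the WT libraries.

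Fkbp10, a prolyl isomerase that folds collagen in the endoplasmic reticulum, was at 29.3, 33.1, 25.4 and 33.3 CPM in S727A and at 37.6, 41.0, 35.7 and 38.4 CPM in WT. All S727A values were below all WT values, with S727A 4 at 33.3 and WT 3 at 35.7 the closest. Fkbp10 had a log2 fold change of -0.33 ± 0.10 (SE). P3h4, a collagen-modifying protein of the same compartment, starts 978 bases away on the other strand and is no member; it was at 24.6 ± 5.47 against 34.8 ± 2.82 CPM, a log2 fold change of -0.50 ± 0.14 with an edgeR adjusted p of 0.1352 and overlapping groups. Fibroblast markers (Pdgfra, Col1a1, Col3a1, Dcn, Lum and Tcf21) went the other way, with 6 of 6 above 0, none passing, none of them at 0, and sums of 1942 to 2287 CPM in S727A and 1319 to 2128 CPM in WT. Their part in the Fkbp10 values was not tested. In whole hearts, fewer cells of a type and less RNA per cell cannot be told apart.

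The members of this role not yet named had log2 fold changes from -0.14 to 0.09. Eif1, which sets the choice of the start codon, was the highest member per length and had a log2 fold change of 0.03 ± 0.08 at 364 ± 12.8 and 357 ± 20.8 CPM. Psme3, a nuclear activator of the proteasome, had -0.10 ± 0.08, Dhx8, a helicase that releases spliced RNA, -0.14 ± 0.12, and Lsm12 0.03 ± 0.09. Dnajc7, a co-chaperone of HSP70 and HSP90, was at 80.8 ± 17.7 and 76.0 ± 12.96 CPM, a log2 fold change of 0.09 ± 0.16. Klhl11, an adaptor of cullin ubiquitin ligases, had 0.09 ± 0.19.

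Among the 3 members of innate immunity, the differences pointed in both directions. Ifi35, an interferon-induced protein, was at 22.6, 20.2, 18.6 and 22.3 CPM in S727A and at 13.5, 13.9, 17.2 and 16.7 CPM in WT. All S727A values were above all WT values, S727A 3 being the closest to WT 3. Ifi35 had a log2 fold change of 0.44 ± 0.12 (SE). Dhx58, a helicase that modulates RNA sensing, was at 2.68 ± 0.590 and 2.96 ± 0.578 CPM, a log2 fold change of -0.15 ± 0.24.

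Tmem106a, a membrane protein described in macrophages, was at 7.78, 7.54, 7.22 and 7.07 CPM in S727A and at 9.39, 10.8, 12.9 and 10.2 CPM in WT. All S727A values were below all WT values, and WT 3 was the highest. Tmem106a had a log2 fold change of -0.55 ± 0.14 (SE). Macrophage markers (Adgre1, Csf1r, Cd68, Cd163, Mrc1 and C1qa) had 6 of 6 genes below 0, none passing and none at 0. The sum of these markers was 151 to 209 CPM in S727A and 217 to 353 CPM in WT. Their part in the Tmem106a values was not tested.

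Of the 8 tested members of the cytoskeleton, cell contacts, axon and myelin, 7 were below 0, beside 6578 of all 12998 tested genes. Their median log2 fold change was -0.54, the lowest of the 8 roles. Their median SE, 0.203, was the largest of the 8 roles, and the groups overlapped for each of them. The genes of this role named below other than Tubg1 and Tubg2 were chosen after their values were seen. Adam11, a catalytically inactive ADAM protein known from neurons, was at 12.3, 12.1, 10.3 and 21.3 CPM in S727A and at 24.1, 32.4, 25.5 and 21.3 CPM in WT. S727A 1 to 3 were below all WT libraries. S727A 4, the highest of S727A, was at the level of WT 4, the lowest of WT. Both almost lacked Y-linked counts, and whether that bears on their Adam11 values was not tested. The log2 fold change was -0.88 ± 0.22 (SE) over all 8 libraries and -1.24 ± 0.14 without those 2.

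Mpp2, a scaffold protein of cell junctions and synapses, was at 5.84, 6.27, 8.38 and 5.21 CPM in S727A and at 10.2, 10.5, 7.32 and 11.3 CPM in WT. S727A 3 was above WT 3, and the other libraries separated by genotype. The log2 fold change was -0.61 ± 0.19, and its relative Mpp6 on another chromosome had -0.20 ± 0.12. Cntnap1, which anchors myelin loops beside the node of Ranvier, was at 2.96, 3.65, 3.48 and 5.36 CPM in S727A and at 6.71, 4.40, 7.03 and 6.62 CPM in WT, a log2 fold change of -0.68 ± 0.22. S727A 4 lay above WT 2, and WT 2 was far below the other WT libraries.

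Plekhh3, a protein with pleckstrin and FERM domains, lies close to Cntnap1 and was at 28.6, 19.1, 21.2 and 33.3 CPM in S727A and at 36.3, 38.5, 28.9 and 38.6 CPM in WT. S727A 4 was above WT 3, and the log2 fold change was -0.48 ± 0.17. Cnp, a myelin enzyme that is also present in other cells, was at 10.2 ± 0.429 and 11.3 ± 1.33 CPM, and Hap1, a partner of huntingtin in vesicle transport, had a log2 fold change of 0.08 ± 0.25 at 2.39 ± 0.569 and 2.26 ± 0.327 CPM.

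Tubg1 and Tubg2, near-identical genes for gamma-tubulin, which nucleates microtubules, had counts that were not whole while their sum was whole in 8 of 8 libraries (tolerance 1e-06), so reads were divided between them. Tubg2 was at 2.65, 1.67, 1.16 and 3.34 CPM in S727A and at 3.45, 4.03, 3.37 and 2.65 CPM in WT, a log2 fold change of -0.60 ± 0.31, and S727A 4 lay within the WT range. Without S727A 3 the value for Tubg2 was -0.39, and without S727A 4 and WT 4 it was -0.97. Tubg1 had -0.07 ± 0.11. Both values are uncertain, and the sum of the pair was 33.0 ± 4.52 CPM in S727A and 35.7 ± 3.23 CPM in WT.

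Of the 7 members of vessels, ion transport and signalling, 3 were above and 4 below 0. Wnk4, a kinase that controls sodium and potassium transport in the kidney, was named after its values were seen and was at 11.2, 14.7, 13.6 and 24.2 CPM in S727A and at 31.3, 33.1, 23.3 and 29.1 CPM in WT. S727A 4 was above WT 3, and the other libraries separated by genotype. The log2 fold change was -0.87 ± 0.22 (SE), while Wnk1, a relative on another chromosome, had -0.06 ± 0.11.

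The endothelial members differed in direction from each other. Ramp2, the partner of the adrenomedullin receptor, was at 64.9, 95.0, 70.5 and 72.5 CPM in S727A and at 50.8, 45.4, 65.7 and 78.0 CPM in WT, a log2 fold change of 0.34 ± 0.18, and WT 3 and WT 4 lay within the S727A range. Without S727A 2, the highest library, the value was 0.21, and without S727A 4 and WT 4 it was 0.51. Cd300lg, a capillary surface protein, was at 117, 94.9, 102 and 105 CPM in S727A and at 132, 131, 109 and 134 CPM in WT, a log2 fold change of -0.27 ± 0.10, with WT 3 below S727A 1. Aoc3, an amine oxidase of vessel walls and fat cells, had -0.09 ± 0.16.

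Endothelial markers (Pecam1, Cdh5, Kdr, Tie1, Tek, Emcn and Egfl7) had 4 of 7 above 0 and 3 below, none passing and none at 0, and their sum was 919 to 1026 CPM in S727A and 936 to 1024 CPM in WT. Smooth muscle and pericyte markers had 6 of 6 below 0, none passing, with sums of 1009 to 1275 CPM in S727A and 1320 to 1955 CPM in WT. The part of either list in the Ramp2, Cd300lg and Aoc3 values was not tested. Dusp3, a phosphatase of MAP kinases, had a log2 fold change of 0.09 ± 0.12, Nkiras2, an inhibitor of NF-kappa-B activation, -0.01 ± 0.12, and Rnd2, a small GTPase, 0.38 ± 0.26 at 2.27 ± 0.394 and 1.74 ± 0.422 CPM. Their groups overlapped.

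The 8 members of chromatin and transcription were mostly a little lower in S727A, with 6 below and 2 above 0, a median of -0.13, and overlapping groups for each. Gpatch8, a G-patch protein, was at 48.0 ± 3.45 against 57.6 ± 8.83 CPM, a log2 fold change of -0.26 ± 0.11. Ubtf, which activates ribosomal RNA genes, was at 69.7 ± 7.37 against 81.6 ± 7.64 CPM, a log2 fold change of -0.23 ± 0.10. Hdac5, a class IIa deacetylase known for restraining hypertrophic genes in the heart, was at 147, 114, 111 and 137 CPM in S727A and at 142, 151, 136 and 146 CPM in WT. S727A 1 and S727A 4 lay within the WT range while S727A 2 and S727A 3 were below it, and the log2 fold change was -0.17 ± 0.10.

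Smaller values were seen for the other chromatin members. Ezh1, a methyltransferase of the Polycomb complex PRC2, had a log2 fold change of -0.08 ± 0.09. Kat2a, the acetyltransferase of the SAGA complex, had -0.04 ± 0.09, and Atxn7l3, of the deubiquitinase module of SAGA, 0.00 ± 0.09. Psmc3ip, a cofactor of meiotic recombination, had 0.20 ± 0.26 at 1.35 ± 0.207 and 1.18 ± 0.0507 CPM.

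The 5 tested members of metabolism and mitochondria had log2 fold changes between -0.11 and 0.04. Acly, which makes cytosolic acetyl-CoA from citrate, was at 50.6 ± 4.00 and 54.5 ± 6.34 CPM. Coasy, which catalyses the last steps of coenzyme A synthesis, was at 16.5 ± 3.16 and 16.6 ± 3.03 CPM. Coa3, an assembly factor of cytochrome c oxidase, had a log2 fold change of 0.04 ± 0.08, Slc25a39, a mitochondrial glutathione carrier, -0.08 ± 0.12, and G6pc3, a glucose-6-phosphatase, -0.04 ± 0.13. The 3 little described members were Ghdc with 0.02 ± 0.10, Rundc1, and Tmem101 with 0.38 ± 0.20, which was at 8.87, 8.97, 8.74 and 12.8 CPM in S727A and at 5.94, 6.09, 7.98 and 10.1 CPM in WT. For Tmem101 the groups overlapped through WT 4, and without S727A 4 its log2 fold change was 0.23.

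**Figure D4:**
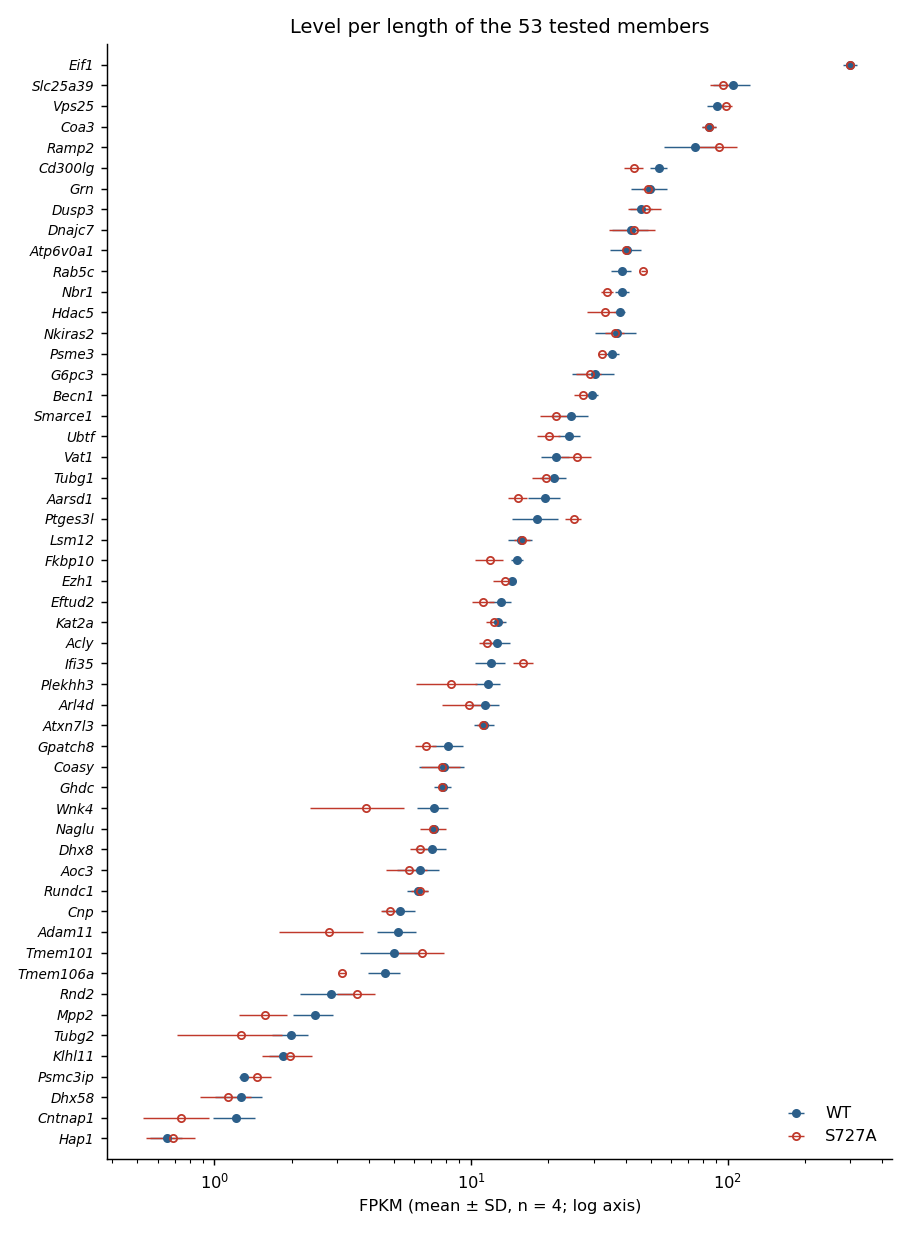
FPKM (logarithmic axis) of the 53 tested members, ordered by the WT mean, with WT filled and S727A open; bars are SD (n = 4). Eif1 is highest at 300.0 FPKM in WT and Hap1 lowest at 0.653.

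Compared per length, the tested members ran from 0.653 to 300.0 FPKM in WT with a median of 13.03, as the plot of levels per length shows. In WT, 16 members exceeded 30 FPKM and 8 were under 3. Behind Eif1 came Slc25a39 at 105 ± 17.6, Vps25 at 90.7 ± 8.06, Coa3 at 84.5 ± 5.22 and Ramp2 at 74.8 ± 18.6 FPKM. Adjacent pairs among these named members of the order by WT level, Eif1 apart, differed by less than the larger SD of the pair. At the low end Dhx58 was at 1.27 ± 0.263, Cntnap1 at 1.21 ± 0.224 and Hap1 at 0.653 ± 0.0929 FPKM, of which Dhx58 and Cntnap1 lay within their SD of each other. Some members with large absolute fold changes stood in the lower part of this order, Cntnap1 as above, Wnk4 at 7.16 ± 0.991, Adam11 at 5.18 ± 0.896 and Mpp2 at 2.46 ± 0.432 FPKM in WT, beside 3.91 ± 1.55, 2.79 ± 1.00 and 1.58 ± 0.339 FPKM in S727A.

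How many members separated depended on which library was left out. With fewer libraries in a group, the number of genes that do not overlap can only stay or rise. The share of all genes that separated rose with each library left out as well. The S727A library nearest to the WT group was S727A 4 for 17 of the 53 members (32.1%, beside 43.0% of all tested genes), and the WT library nearest to the S727A group was WT 4 for 22 (41.5%, beside 29.6%) and WT 3 for 17 (32.1%, beside 34.2%). Without S727A 4, 13 members did not overlap (21.6% of all genes), without WT 3 it was 12 (17.1%) and without WT 4 it was 12 (13.9%). Leaving out any other single library gave 5 to 8 members (9.43% to 15.1%, beside 10.32% to 10.96% of all genes). Without S727A 4, edgeR called 4 members, Adam11, Cntnap1, Plekhh3 and Wnk4, and 617 of all genes; without S727A 4 and WT 4 it called Adam11 and Wnk4, and 242 of all genes.

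Relatives of the members on other chromosomes, which position could not have put on the list, were compared in the same fit. Of 96 paralogues and partners, 78 were tested, 11 lie on chromosome 11, 3 were too low and 4 were not among the table's symbols. None of the 78 passed an adjusted p of 0.05 in edgeR, beside 0.146% of all genes, 10 had an unadjusted p under 0.05 (beside 17.8% of all genes), and DESeq2 and limma voom called 0 (beside 3.72% and 0.0462%). The median was -0.06, with 31 above and 47 below 0. Relatives of the chromatin members had 15 of 17 below 0 (median -0.15). A mixed list had 11 of 13 above 0 (median 0.13), as the plot of members and relatives by role shows. In it, 7 relatives of Ramp2, Aoc3, Wnk4 and Dusp3 had 5 above and 2 below 0 (median 0.10), and 6 relatives of Fkbp10, Dnajc7 and Arl4d were all above 0 (median 0.23), a split made after the values were seen. The other 5 lists, which also cross the members' roles in places, had medians between -0.14 and -0.01.

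**Figure D5:**
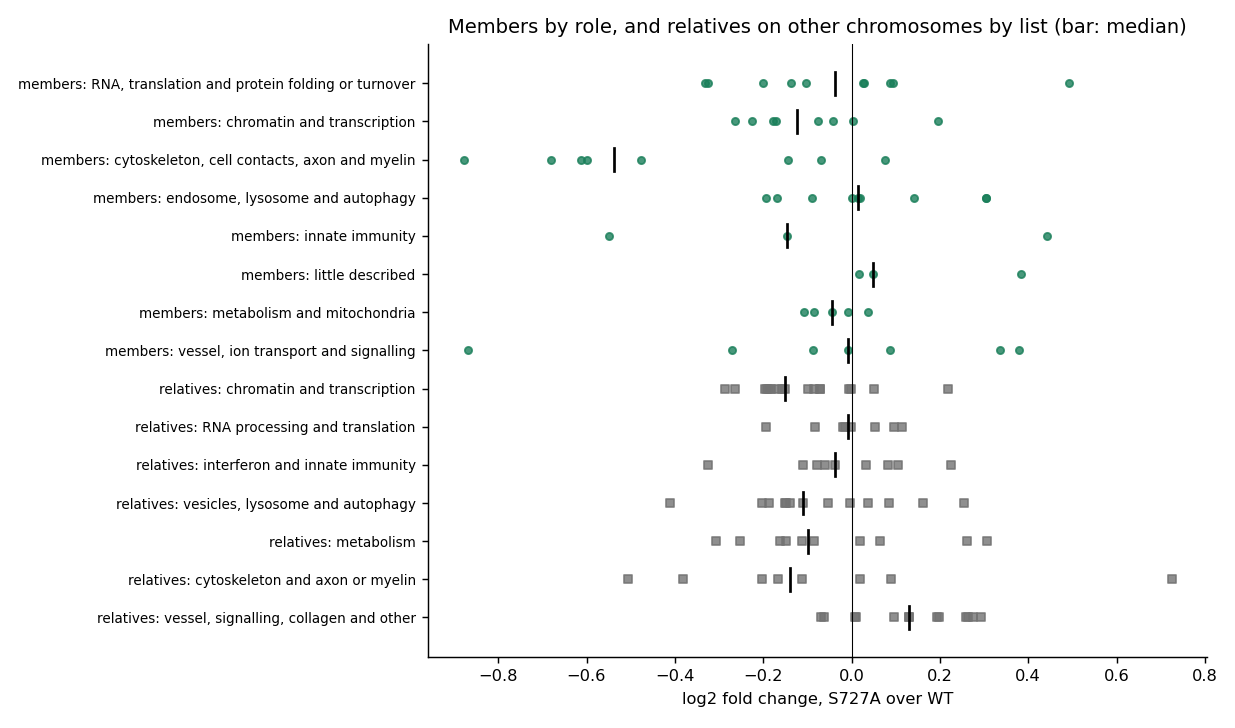
Log2 fold change of S727A over WT for each tested member by role (circles) and for relatives on other chromosomes by list (squares), with a bar at the median. Members of the cytoskeleton, cell contacts, axon and myelin have the lowest median, -0.54, with overlapping groups for each and the largest median SE of the roles. The mixed list of vessel, signalling, collagen and other relatives has the highest median, 0.13.

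Of the 6 relatives of smallest p, none of which passed, 5 are given with their values. P3h1, a prolyl hydroxylase of collagen, was at 29.8 ± 2.14 against 24.3 ± 2.04 CPM, a log2 fold change of 0.29 ± 0.10 with an edgeR adjusted p of 0.1663, and all S727A values were above all WT values. Acacb, which makes the malonyl-CoA that restrains fatty acid oxidation, was at 420 ± 58.5 against 519 ± 30.5 CPM, a log2 fold change of -0.31 ± 0.10 (adjusted p = 0.1707). Rnd1, a small GTPase, was at 4.30 ± 0.739 against 2.59 ± 0.882 CPM, a log2 fold change of 0.72 ± 0.26 (adjusted p = 0.1866). The groups overlapped for both of these.

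Atp6v0d1, which belongs to the same proton pump as Atp6v0a1, was at 57.3 ± 2.92 against 48.0 ± 4.68 CPM, a log2 fold change of 0.25 ± 0.09 (edgeR adjusted p = 0.1877), and the groups did not overlap. Arid1a, a partner of Smarce1 in SWI/SNF, had -0.29 ± 0.11 (edgeR adjusted p = 0.2042), with overlapping groups. Without S727A 4, edgeR called 3 relatives, Acacb, Arid1a and Hdac4, and 617 of all tested genes. Without any other single library it called 0 relatives and 0 to 275 of all genes.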

How the data were processed

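RNA was sequenced in 8 heart libraries, grouped by the sample titles. Extraction used Trizol, and mRNA libraries that keep strand were built for DNBSEQ, per the labels' protocols. FastQC, HISAT2, Bowtie2 and GRCm38.p6 are listed, without roles, in the submitters' processing notes; which program counted reads is not stated in them. The authors deposited an estimated count and an FPKM value (scaled for gene length and library size) for each gene in each library, as the column names say. The deposited table also holds the authors' log2 ratio, p-value and q-value per gene, made with a program that no label names. All per-sample columns were matched to samples by name.

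Estimated counts were rounded and filtered with edgeR's filterByExpr (minimum count 10, minimum total 15), leaving 12998 genes. The whole table was fitted with edgeR 4.0.16 in R 4.3.3 (TMM, robust quasi-likelihood F test, legacy mode, genotype as the only term, two-sided, Benjamini-Hochberg adjusted p under 0.05). CPM uses TMM-scaled library sizes, and standard errors come from the F statistic. The edgeR fit was run on counts simulated from its own fitted means and dispersions. This checks the computation and cannot check the assumptions of the model. Alternatives were RLE scaling, no filter, a CPM filter, DESeq2 1.42.0, limma 3.58.1 (voom, and trend on log2 of FPKM plus 1 or 0.1), a block for the replicate number, leaving out each library, and leaving out both libraries almost without Y-linked counts.

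Positions come from the RefSeq table of GRCm38.p6, matched by gene ID, and strands and the read-through gene from GENCODE M21. Members and gene lists were chosen with earlier results of these data known. Members named in full were those whose groups did not overlap with a mean log2 CPM of at least 1 (up to 12 per direction), the outermost members, the partners of such members in pairs starting within 1000 bases on opposite strands, and Tubg1 with Tubg2; relatives were those passing, or else the 6 of smallest p. Other genes are said to be named after their values were seen or are given as part of their role. A relative that this rule takes and a list of cell type markers are not reported here.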

Additional observations from a re-analysis of the deposited data

Results flagged for a closer look

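In 5 of 110 groups of 4 libraries, over 53 tested members, Stat3 and P3h4, 1 library stood far from the other 3: its gap to the nearest of the others, as a share of the group's whole range, was above Dixon's 95% critical value. Chance flags about 1 in 20 groups, and 5 of 110 is 4.545%. Rab5c was flagged in S727A with a gap share of 0.862, where S727A 4 was at 84.6 CPM and the others at 88.9 to 89.6. Arl4d was flagged in S727A with 0.947, where S727A 3 was at 17.0 CPM and the others at 11.5 to 11.8. Tmem101 was flagged in S727A with 0.943, where S727A 4 was at 12.8 CPM and the others at 8.74 to 8.97. Cntnap1 was flagged in WT with 0.845, where WT 2 was at 4.40 CPM and the others at 6.62 to 7.03. Cd300lg was flagged in WT with 0.872, where WT 3 was at 109 CPM and the others at 131 to 134. No cause of these gaps was tested.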

How the results depend on the processing

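The median absolute log2 fold change of the neighbours stayed between 0.12 and 0.21 under all 17 alternatives run, and 36 of the 53 tested members kept their sign in each; the other 17 had absolute values of at most 0.15. All genes passing numbered 19 with edgeR, 513 with DESeq2, 6 with voom, 6 and 4 with log2(FPKM + 1) and log2(FPKM + 0.1), 242 without the 2 libraries almost lacking Y-linked counts, and 0 to 617 with 1 library left out: 0 without S727A 1, S727A 3 or WT 1, 8 without S727A 2, 15 without WT 2, 2 without WT 4, 275 without WT 3 and 617 without S727A 4. Neighbours passing numbered 0, but 6 with DESeq2, 2 without the libraries lacking Y-linked counts, and 0 to 4 with 1 library left out. Neighbours that did not overlap numbered 5 (8.43% of all genes), but 19 without those libraries (28.4% of all genes), 9 with either pseudocount on FPKM (8.371%), and 5 to 13 with 1 library left out (10.3% to 21.6%). Relatives passing were 0 to 3 with 1 library left out. Leaving out a library can only keep or raise the number of genes that do not overlap. The cause of these shifts was otherwise not tested.

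Same-numbered libraries did not deviate together over the tested genes (correlations of their deviations -0.052, -0.102, 0.065 and 0.071). The labels do not say whether the numbers pair libraries, and these correlations cannot settle it. The replicate block gave 2 calls, none of them a neighbour. Members under 3 CPM rest on few counts, and these data hold no unoperated hearts.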
